A study of Mus musculus with 40 samples.

Results

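Brown adipose tissue (BAT) burns lipid in mitochondria that are uncoupled by UCP1, and the transcript levels described here are those of 10 regulators of that lipid and mitochondrial program. The genes were chosen by symbol: the peroxisome proliferator-activated receptors *Ppara*, *Ppard* and *Pparg*, the retinoid X receptors *Rxra* and *Rxrg*, the PGC1 coactivators *Ppargc1a* and *Ppargc1b*, and the estrogen-related receptors *Esrra*, *Esrrb* and *Esrrg*. They are 10 of the 20295 genes in the table, and all 10 passed the filter on low counts. RNA of BAT was sequenced from 40 male mice kept at 29 °C, which fell into 8 groups of 5. In the first cohort, aged 13 to 19 weeks, C-3BO mice carried *Gpr3* TTG, a *Gpr3* transgene behind a stop cassette in the *Rosa26* locus, together with *Ucp1*-Cre, which is active in brown and beige adipocytes. Their control littermates carried 1 of these alleles alone, either heterozygous *Gpr3* TTG without Cre or Cre without *Gpr3* TTG, and the labels do not say which mouse carried which. Both genotypes ate chow, or a high-fat diet (HFD) with 60 kcal% fat over 7 days. Mice of the second cohort were 15 weeks old, were labelled wildtype and were control littermates from the *Gpr3* TTG by *Ucp1*-CreERT2 line. They received daily CL-316,243 (CL, a β3-adrenergic agonist) at 1 mg/kg or saline at 10 µL/g for 9 consecutive days, on chow or on HFD. On HFD the injections began 2 days before the diet was changed, so HFD also lasted 7 days, and tissue was taken the day after the last injection.

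GPR3 and the β3-adrenergic receptor both couple to Gs and raise cAMP in brown adipocytes. PPARs bind DNA as heterodimers with RXRs and are switched on by fatty acids. PPARγ is the master regulator of adipocyte formation, PPARα drives genes of fatty acid oxidation, and PPARδ is the broadly expressed member that also favours lipid oxidation. PGC1α and PGC1β bind no DNA themselves and instead boost the activity of PPARs and estrogen-related receptors (ERRs). PGC1α is known in BAT for its rapid induction by cold through cAMP and CREB. ERRs are orphan receptors, without a known natural ligand, that act on genes of the TCA cycle and the respiratory chain.

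Because both treatments act through cAMP, the sequence before the *Ppargc1a* start was searched for the palindrome of the cAMP response element, TGACGTCA, which CREB binds. Both strands were read for each motif. *Ppargc1a* (NM_008904) lies on the minus strand of mm9 from chr5:51845488-51945160, and the match lay 84 to 77 bases upstream of that start. The window is chr5:51945197-51945284, read 5′ to 3′ on the minus strand, with the match in capitals.

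Ppargc1a: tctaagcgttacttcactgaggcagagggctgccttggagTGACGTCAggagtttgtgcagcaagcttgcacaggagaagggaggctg

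TGACGTCA was present within 250 bases upstream of the deposited start in 2.14% of 20292 genes and, of the 10 regulators, in *Ppargc1a* alone. The nuclear receptor site AGGTCA was present upstream of *Pparg* alone, against 12.04% of all genes. TCAAGGTCA, the extended site of the ERRs, and AGGTCA repeated after 1 base, the direct repeat 1 of PPAR and RXR dimers, were in none of the 10 windows and in 0.306% and 0.0542% of all windows. AGGTCA is part of both longer motifs. In RefSeq promoters of another build (GRCm38.p6, 250 bases before to 50 after each start), 17 promoters of 9 of these genes were matched. TGACGTCA was in none of them and in 1.79% of all promoters, and AGGTCA was in 4 of them and in 16.3% of all. TCAAGGTCA and the direct repeat were in none of them and in 0.423% and 0.0396% of all. The *Ppargc1a* entry of that table has a different start. The GENCODE annotation of mm9 also places its first start 13804 bases upstream of the deposited start, and the mm9 sequence before it was not searched. Matches describe these windows and are not shown binding.

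The libraries held 849126 to 15260516 counts in genes. Levels are in CPM, the counts per 1000000 of a library total scaled by edgeR's TMM factor, and 3 counts, used as a detection floor for counting error alone, were worth 0.206 to 3.01 CPM. *Gpr3* lay between 266 and 918 CPM in the 10 C-3BO mice and at most at 9.15 CPM in the other 30. All 9 brown adipocyte markers were present in each group, and their sum was 12542 to 17326 CPM in chow control and 19749.9 to 28647 CPM in chow C-3BO mice. It was 14641 to 27981 CPM in HFD control and 29725.5 to 34305 CPM in HFD C-3BO mice. Chow saline and chow CL mice had 12971 to 18840 and 17531 to 25957 CPM. HFD saline and HFD CL mice had 14348 to 17443 and 22123 to 28043 CPM. Summed macrophage and white adipocyte markers reached at most 683 and 1179 CPM in any mouse. A set of 12 low-total libraries, from every HFD-fed injected mouse and from HFD C-3BO mice 4 and 5, had summed epididymis markers of 9.02 to 63.2 CPM, against at most 0.979 CPM in the other 28. Diet and this set of libraries cannot be told apart among injected mice. The 14 skeletal muscle markers summed to 841 to 10828 CPM in chow control mice and to 9.39 to 235 CPM in HFD control mice. Chow CL mouse 5 had *Ucp1* at 1645 CPM, within the chow saline range of 1267 to 1865 CPM, whereas chow CL mice 1 to 4 had 5943 to 8987 CPM. In whole tissue, fewer cells of a type and less RNA per cell cannot be told apart.

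Per kilobase of counted exon, the 10 regulators covered a wide range of levels. *Pparg* had group means of 177 to 212 CPM per kb, followed by *Ppara* at 121 to 204 and *Esrra* at 109 to 173. *Ppargc1b* lay at 23.9 to 60.04, *Rxra* at 18.7 to 34.1, *Rxrg* at 12.3 to 18.7, *Ppard* at 11.0 to 15.7, *Ppargc1a* at 9.91 to 12.96 and *Esrrg* at 8.10 to 13.6 CPM per kb. *Esrrb* was near the floor, at 0.337 to 1.15 CPM per kb, with 1 to 85 counts per mouse. Among the ERRs and the PGC1 genes 1 gene held most of the level in every group. Per kb, *Pparg* had group means of 49.1% to 61.2% of the PPAR level, and *Rxra* of 51.9% to 70.1% of the *Rxra* and *Rxrg* sum. *Esrra* held 89.98% to 93.0% of the summed ERR level per kb over the 8 groups, and *Ppargc1b* held 66.9% to 85.6% of the PGC1 level. *Ppara* held 34.8% ± 6.78 (SD, n = 5) of the PPAR level in chow control mice and 47.2% ± 4.17 in HFD control mice, and *Ppard* had group means of 3.29% to 4.61%.

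**Figure D1:**
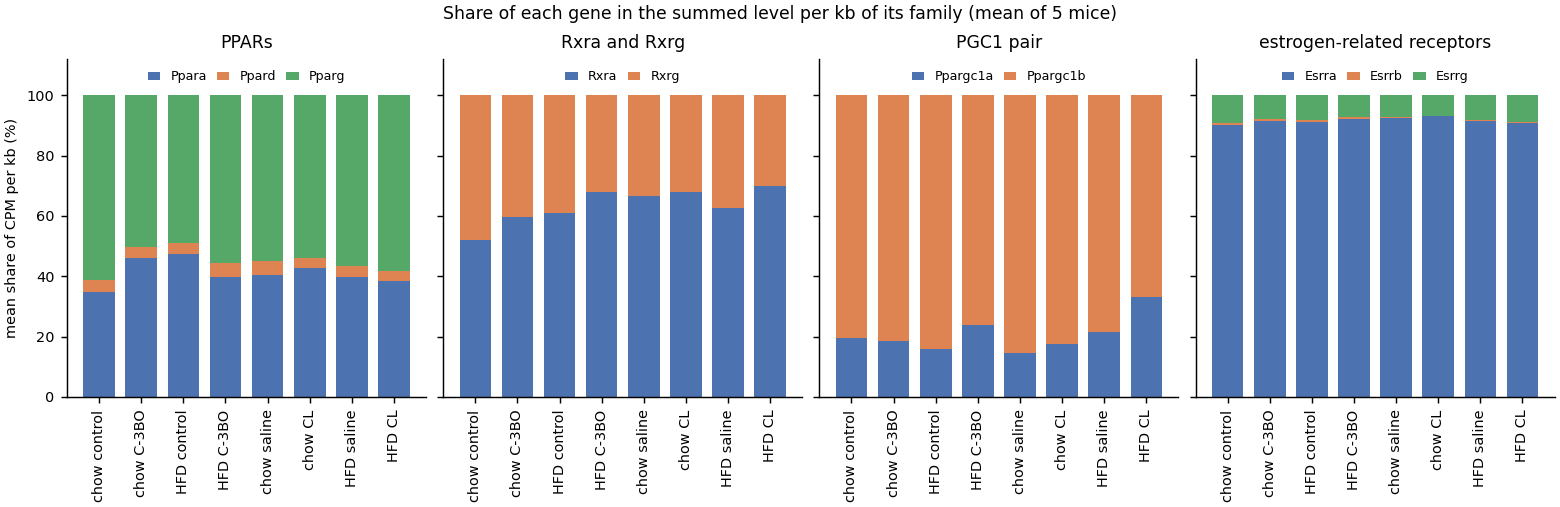
Stacked bars show the mean share (%) of each gene in the summed CPM per kb of its family, in 8 groups of 5 mice. *Esrra* and *Ppargc1b* held most of their families in every group, and the *Ppargc1a* share was highest in HFD CL mice, at 33.1%.

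In each comparison of 2 groups 1 to 5 of the 10 genes passed the test. In C-3BO against control mice on chow, 1 rose and 1 fell, while 15.8% of the 13277 tested genes rose and 15.9% fell. On HFD the same comparison gave 3 that rose and 2 that fell, against 19.3% and 15.5% of all genes. CL against saline gave 1 higher and 1 lower on chow, against 9.16% and 6.13%, and 0 higher and 1 lower on HFD, against 12.7% and 10.8%. None of the 10 passed a log2 fold change of 1 or -1 as well in these 4 comparisons, a size that 7.19%, 7.43%, 2.58% and 4.11% of all genes passed. HFD against chow gave 2 higher and 1 lower in control mice, where 15.4% and 17.5% of all genes passed, and 4 higher and 1 lower in C-3BO mice, where 13.5% and 12.2% passed. In saline mice the diet gave 1 and 1, against 7.45% and 8.04%, and in CL mice 0 and 1, against 10.9% and 12.7%. The shares of the 10 were thus near those of all genes in most comparisons. Comparisons of the same cohort share mice, so their counts are not independent. When libraries were scaled by their totals alone, the median of all genes shifted by -0.20, -0.17, -0.14 and -0.14 on the log2 scale in the 4 treatment comparisons and by 0.15 to 0.18 in the diet comparisons. The share of calls that were higher then fell from 49.8% to 20.2%, from 55.3% to 30.1%, from 59.9% to 26.6% and from 54.0% to 27.9%, and in the diet comparisons it rose from 46.1% to 52.6% up to 71.2% to 84.8%. The share of higher calls rose from 64.9% to 79.3% for the difference of the C-3BO effects between the diets. The regulators then numbered 1 higher and 3 lower for C-3BO on either diet, 0 and 1 for CL on chow and 0 and 2 for CL on HFD. For HFD against chow they numbered 3 higher and 1 lower in control, 6 and 0 in C-3BO, 4 and 0 in saline and 2 and 1 in CL mice. Of all 13277 tested genes, 1043 then rose and 4131 fell with C-3BO on chow, and 1601 and 3722 on HFD. With CL 699 rose and 1928 fell on chow, and 982 and 2533 on HFD. With the diet 3506 rose and 1415 fell in control and 3859 and 861 in C-3BO mice. The numbers were 2423 and 435 in saline and 2872 and 730 in CL mice. Without HFD C-3BO mice 4 and 5, 2 regulators passed with C-3BO on HFD and 1 with the diet in C-3BO mice. Without HFD saline mouse 4, which had the fewest counts, 1 passed with CL on HFD and 1 with the diet in saline mice, and without chow CL mouse 5 the counts were 2 for CL on chow and 1 for the diet in CL mice.

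**Figure D2:**
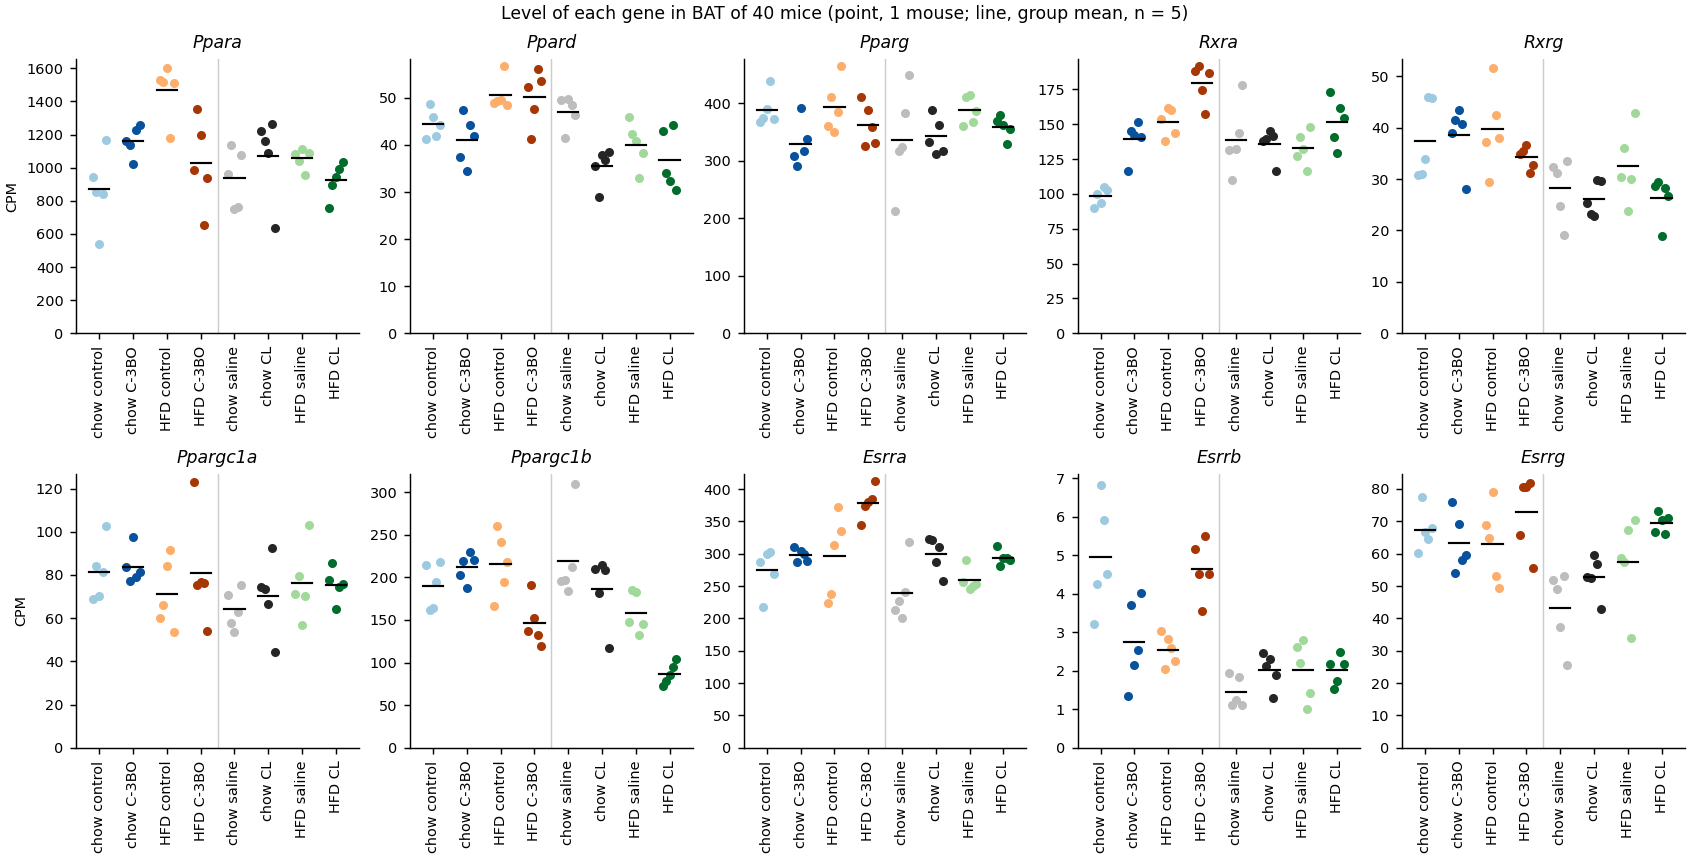
Each panel shows 1 gene, with CPM on the y axis from 0 and the 8 groups on the x axis, first the C-3BO cohort and then the injected cohort. Points are mice and lines are means of 5. *Ppargc1b* was lowest in HFD CL mice, *Rxra* was lowest in chow control mice, and *Ppargc1a* group means stayed between 64.1 and 83.8 CPM.

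*Ppara*, on chromosome 15 (mm9, chr15:85565994-85637281), was raised by HFD in control mice and was lower with C-3BO on HFD. Chow control mice had 943, 855, 542, 844 and 1168 CPM and chow C-3BO mice had 1159, 1138, 1024, 1229 and 1259.7 CPM. HFD control mice had 1531, 1515, 1603, 1181 and 1511 CPM and HFD C-3BO mice had 983, 1355, 1194, 656 and 938 CPM. All HFD control mice were thus above all chow control mice, a separation in either direction that 18.9% of all tested genes showed. HFD C-3BO mice spread widely. HFD raised *Ppara* 1.69-fold in control mice, a log2 fold change of 0.75 (SE 0.17, adjusted p = 0.00055). In C-3BO mice the diet difference was -0.18 (SE 0.17, adjusted p = 0.47). C-3BO against control gave 0.42 (SE 0.17, adjusted p = 0.052) on chow, just outside the threshold, and a log2 fold change of -0.52 (SE 0.17, adjusted p = 0.014) on HFD. The effects of C-3BO on the diets differed, HFD minus chow, by -0.93 (SE 0.24, adjusted p = 0.024), a difference that 2.08% of all genes passed. Without HFD C-3BO mice 4 and 5, 2 of the low-total libraries, the fall on HFD was -0.32 (adjusted p = 0.20) and the difference between diets was -0.74 (adjusted p = 0.14). Leaving out HFD C-3BO mouse 4 alone gave -0.40 (adjusted p = 0.067) for the fall and -0.84 (adjusted p = 0.055) for the difference, and leaving out chow control mouse 3 gave -0.81 (adjusted p = 0.059) for the latter. The chow value passed without chow control mouse 1, at 0.47 (adjusted p = 0.048), chow control mouse 5, at 0.55 (adjusted p = 0.015) or chow C-3BO mouse 3, at 0.49 (adjusted p = 0.032), and under DESeq2, at 0.40 (adjusted p = 0.047).

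In the injected mice *Ppara* group means lay between 923 and 1073 CPM, and the rise with HFD did not pass. HFD against chow gave 0.17 (95% interval -0.17 to 0.51, adjusted p = 0.53) in saline mice. In CL mice it gave -0.22 (95% interval -0.55 to 0.12, adjusted p = 0.37), and diet cannot be told apart from the low-total set in either. CL against saline gave 0.19 (95% interval -0.14 to 0.53, adjusted p = 0.48) on chow and -0.19 (95% interval -0.53 to 0.14, adjusted p = 0.44) on HFD. Chow CL mice had 1219, 1159, 1089, 1262 and 636 CPM, with mouse 5 lowest, and without that mouse the chow value was 0.33 (adjusted p = 0.14). Over the 8 groups *Ppara* ranked highest in HFD control mice and lowest in chow control mice, a 1.69-fold span, and the mice of each group overlapped those of the next group in the order.

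*Ppard* (chr17:28369699-28438414) was lowered by CL on chow. Chow saline mice had 49.6, 41.4, 49.8, 48.4 and 46.3 CPM and chow CL mice had 35.5, 28.9, 37.8, 36.9 and 38.6 CPM. No CL mouse reached the saline range, a separation in either direction that 9.4% of all tested genes showed. Chow CL mouse 5 was the highest of the CL mice. The level fell to 0.755 of that in saline mice, a log2 fold change of -0.41 (SE 0.10, adjusted p = 0.0052), and by exact two-sided permutation of the 5 and 5 mice p was 0.0079, the smallest that 252 regroupings can give. Without chow CL mouse 5 it was -0.44 (adjusted p = 0.0044). On HFD, saline mice had 45.9, 42.3, 40.9, 33.1 and 38.3 CPM and CL mice had 42.9, 34.1, 32.3, 44.2 and 30.5 CPM, which overlapped, with a log2 fold change of -0.14 (95% interval -0.36 to 0.074, adjusted p = 0.36). The difference between the CL effects on the diets was 0.26 (95% interval -0.037 to 0.56, adjusted p = 0.60), so the diets were not shown to differ. C-3BO did not move *Ppard* past the threshold on chow, -0.11 (95% interval -0.32 to 0.096, adjusted p = 0.43), or on HFD, -0.016 (95% interval -0.22 to 0.19, adjusted p = 0.93). HFD raised it in C-3BO mice by 0.29 (SE 0.10, adjusted p = 0.037), but the call was lost without any 1 of 7 of the 10 mice (chow C-3BO mice 1, 3 and 5 and HFD C-3BO mice 1, 3, 4 and 5), with values of 0.20 to 0.29.

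*Pparg* (chr6:115311239-115440419), which marks adipocyte identity, passed in none of the comparisons. Its group means ran from 328 CPM in chow C-3BO mice to 394 CPM in HFD control mice, a 1.2-fold span that was the narrowest of the 10. C-3BO against control gave -0.24 (95% interval -0.48 to -0.0068, adjusted p = 0.11) on chow and -0.12 (95% interval -0.35 to 0.12, adjusted p = 0.45) on HFD. CL against saline gave 0.023 (95% interval -0.21 to 0.26, adjusted p = 0.93) on chow and -0.11 (95% interval -0.35 to 0.12, adjusted p = 0.54) on HFD. With library totals alone the C-3BO values were -0.44 (adjusted p = 0.0026) on chow and -0.29 (adjusted p = 0.043) on HFD, so the call depends on the scaling.

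*Rxra* (chr2:27532721-27618839), the PPAR partner, was higher with C-3BO and with HFD in the C-3BO cohort. Chow control mice had 90.2, 99.7, 93.7, 105 and 103 CPM and chow C-3BO mice had 116, 145, 143, 151 and 141 CPM. HFD control mice had 154, 138, 161, 160.2 and 144 CPM and HFD C-3BO mice had 189, 192, 175, 157 and 187 CPM. Every chow control mouse was below every mouse of the other 3 groups. C-3BO raised *Rxra* 1.42-fold on chow, a log2 fold change of 0.50 (SE 0.095, adjusted p = 9.5e-05), and this passed under each alternative run, with 0.47 to 0.56 when single mice were left out. HFD raised it 1.54-fold in control mice, 0.62 (SE 0.095, adjusted p = 3.2e-06), and 1.29-fold in C-3BO mice, 0.37 (SE 0.095, adjusted p = 0.0038). Exact permutation gave p = 0.0079 for each of these 3 contrasts. In the same order, 18.5%, 18.9% and 16.0% of all tested genes separated the groups fully in either direction. On HFD C-3BO added 0.25 (SE 0.094, adjusted p = 0.038), but 7 of the 10 mice (HFD control mice 1, 2 and 5 and HFD C-3BO mice 1, 2, 3 and 5) each ended this call when left out, with values of 0.21 to 0.26, and library totals alone gave 0.081 (adjusted p = 0.48). The C-3BO effects on the diets differed by -0.26 (95% interval -0.53 to 0.015, adjusted p = 0.36), which did not pass. Endothelial markers summed to 791 to 1175 CPM in chow control, 505 to 1022 in chow C-3BO, 1593 to 2065 in HFD control and 1333 to 1474 CPM in HFD C-3BO mice, so they were higher on HFD, and on HFD they were lower in every C-3BO mouse than in every control mouse. On chow the ranges of the genotypes overlapped. The part of endothelium in these differences was not tested.

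In injected mice *Rxra* passed in no comparison. CL against saline gave -0.030 (95% interval -0.22 to 0.16, adjusted p = 0.88) on chow and 0.19 (95% interval -0.0099 to 0.38, adjusted p = 0.17) on HFD, and HFD against chow gave -0.055 (95% interval -0.25 to 0.14, adjusted p = 0.76) in saline and 0.16 (95% interval -0.032 to 0.35, adjusted p = 0.23) in CL mice. Their endothelial markers were also higher on HFD, at 1266 to 1382 CPM in saline mice against 891 to 1140.4 CPM on chow, and at 1439 to 1946 CPM in CL mice against 875 to 1141 CPM on chow. On HFD every CL mouse was thus above every saline mouse in these markers. *Rxrg* (chr1:169528493-169569754), the retinoid X receptor of narrower expression, passed in none of the comparisons. Its group means lay between 26.1 and 39.8 CPM, and its log2 fold changes were 0.043 (95% interval -0.27 to 0.36, adjusted p = 0.86) and -0.22 (95% interval -0.53 to 0.10, adjusted p = 0.30) for C-3BO on chow and HFD, and -0.11 (95% interval -0.42 to 0.21, adjusted p = 0.71) and -0.30 (95% interval -0.64 to 0.037, adjusted p = 0.20) for CL. Of the summed *Rxra* and *Rxrg* level per kb, *Rxra* held 51.9% ± 3.9 (SD, n = 5) in chow control mice and 59.5% ± 4.66 when C-3BO was added on that diet. On HFD it held 61.0% ± 3.53 in control mice.

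*Ppargc1a*, for which sequence before the deposited start is given above, passed in none of the 11 comparisons. Chow control mice had 68.7, 84.0, 70.3, 81.6 and 102 CPM and chow C-3BO mice had 83.6, 77.4, 97.7, 78.9 and 81.2 CPM. HFD control mice had 60.2, 66.2, 83.9, 91.6 and 53.4 CPM and HFD C-3BO mice had 123, 75.3, 76.6, 76.4 and 53.9 CPM. The groups overlapped throughout, and the single highest value was HFD C-3BO mouse 1. C-3BO against control gave 0.043 (95% interval -0.30 to 0.39, adjusted p = 0.88) on chow and 0.19 (95% interval -0.16 to 0.54, adjusted p = 0.41) on HFD. CL against saline gave 0.13 (95% interval -0.21 to 0.48, adjusted p = 0.66) on chow, where library totals alone turned the sign to -0.0079, and -0.017 (95% interval -0.38 to 0.34, adjusted p = 0.96) on HFD. The highest upper bound of these 4 intervals, that of C-3BO on HFD, was 0.54 on the log2 scale, and *Ucp1* was 14019 CPM in HFD C-3BO mice against 4903 CPM in HFD control mice. Tissue was taken the day after the last CL injection, and earlier times were not analysed here.

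*Ppargc1b* (chr18:61457790-61560085) fell with CL on HFD. HFD saline mice had 148, 185, 183, 132 and 146 CPM and HFD CL mice had 72.8, 78.7, 85.5, 95.2 and 104 CPM. Every CL mouse was below every saline mouse, a separation in either direction that 16.4% of all tested genes showed. CL lowered *Ppargc1b* on HFD to 0.546 of the saline level, a log2 fold change of -0.87 (SE 0.15, adjusted p = 5.9e-05), with an exact permutation p of 0.0079. All 10 of these libraries belong to the low-total set, so the difference was measured within that set, and leaving out single mice gave -0.94 to -0.81, each past the threshold. Without HFD saline mouse 4, whose library had the fewest counts, it was -0.91. Endothelial markers also separated these groups, being higher in every HFD CL mouse, and their part was not tested. For *Ppargc1b* on chow, saline mice had 195, 196, 184, 213 and 309.9 CPM and CL mice had 210.3, 181, 214, 209 and 117 CPM. These overlapped, with -0.24 (95% interval -0.54 to 0.066, adjusted p = 0.31). The CL effects on the diets differed by -0.64 (95% interval -1.07 to -0.20, adjusted p = 0.32), which did not pass. No member passed that contrast by edgeR, with 1 at an unadjusted p under 0.05 and 0 by DESeq2, and 0.0151% of all genes passed it.

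C-3BO lowered *Ppargc1b* on HFD as well. HFD control mice had 166, 260.3, 241, 195 and 218 CPM and HFD C-3BO mice had 137, 191, 153, 132 and 119.6 CPM. HFD C-3BO mouse 2 lay within the control range. The log2 fold change was -0.56 (SE 0.15, adjusted p = 0.0035), or 0.679 of the control level, and without mice 4 and 5 of the C-3BO group it was -0.43 (adjusted p = 0.063). On chow C-3BO mice had 0.16 (95% interval -0.15 to 0.46, adjusted p = 0.45). The difference between the diets was -0.71 (95% interval -1.14 to -0.29, adjusted p = 0.063) and did not pass. HFD changed *Ppargc1b* by -0.53 (SE 0.15, adjusted p = 0.0080) in C-3BO mice, by -0.46 (SE 0.15, adjusted p = 0.033) in saline mice and by -1.10 (SE 0.15, adjusted p = 2.8e-06) in CL mice, whereas control mice of the C-3BO cohort gave 0.18 (95% interval -0.12 to 0.48, adjusted p = 0.37). Without HFD C-3BO mice 4 and 5 the first of these was -0.40 (adjusted p = 0.10), and in the injected mice diet cannot be told apart from the low-total set. The difference in saline mice was lost without chow saline mouse 4 or 5 or HFD saline mouse 1, 4 or 5, with values of -0.47 to -0.30. Over the 8 groups *Ppargc1b* ran from 87.2 CPM in HFD CL to 219.5 CPM in chow saline mice, a 2.52-fold span.

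**Figure D3:**
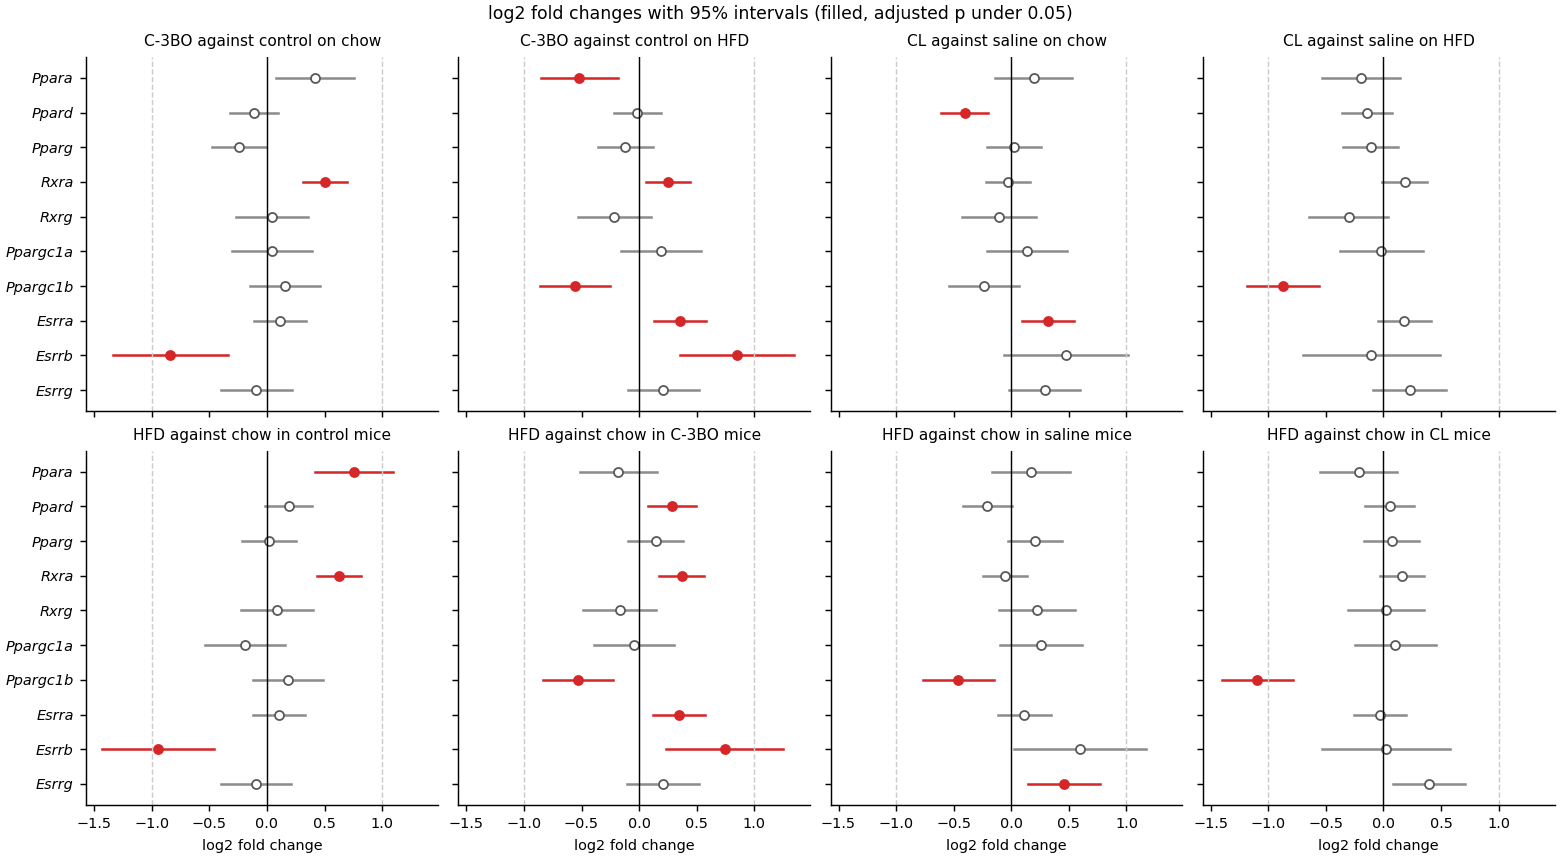
Panels show the log2 fold change (x axis) of the 10 genes (y axis) with 95% intervals in 4 treatment and 4 diet comparisons. Filled red points had an adjusted p under 0.05 in edgeR's quasi-likelihood test, and dashed lines mark 1 and -1. *Ppargc1b* in CL mice on HFD against chow, at -1.10, was the only point past a dashed line.

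*Esrra* (chr19:6985467-6996298), the main ERR here, was highest in HFD C-3BO mice. HFD control mice had 223, 237, 314, 373 and 336 CPM and HFD C-3BO mice had 344, 374, 381, 384 and 413 CPM. Chow C-3BO mice had 310.3, 288, 304, 299.9 and 289 CPM, all below the HFD C-3BO mice. *Esrra* was thus among the 16.0% of all tested genes whose mice separated fully, in either direction, between these groups. C-3BO raised it 1.28-fold on HFD, a log2 fold change of 0.35 (SE 0.11, adjusted p = 0.012), and on chow gave 0.11 (95% interval -0.11 to 0.34, adjusted p = 0.46). The difference between the diets was 0.24 (95% interval -0.080 to 0.56, adjusted p = 0.50). The call on HFD was lost without HFD control mouse 1, 0.26 (adjusted p = 0.086), without HFD control mouse 2, 0.27 (adjusted p = 0.077), without HFD C-3BO mice 4 and 5, 0.30 (adjusted p = 0.084), with library totals alone, 0.19 (adjusted p = 0.15), and when only the libraries compared were fitted, 0.35 (adjusted p = 0.067). HFD raised *Esrra* in C-3BO mice by 0.35 (SE 0.11, adjusted p = 0.020), a call lost without chow C-3BO mouse 3 or HFD C-3BO mouse 3, 4 or 5, with values of 0.31 to 0.32. The deposited interval of *Esrra* overlaps at its 3′ end that of *Trmt112*, which lies on the opposite strand from 6984188 to 6985516. Whether counting used strand is not given in the sources used here, so reads of the overlap cannot be assigned.

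CL on chow raised *Esrra* by 0.32 (SE 0.11, adjusted p = 0.044). Chow saline mice had 213, 227, 201, 240.5 and 319 CPM and chow CL mice had 324, 321, 288, 309.8 and 258 CPM. Chow saline mouse 5 lay within the CL range, and its removal or that of chow CL mouse 5 kept the call, whereas removal of any other of the 10 mice ended it, with values of 0.25 to 0.34 and adjusted p values of 0.055 to 0.17. On HFD CL gave 0.18 (95% interval -0.047 to 0.41, adjusted p = 0.26).

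*Esrrg* (chr1:189432885-190038763), a receptor of oxidative tissues such as heart and muscle, had group means of 43.3 to 73.0 CPM. It did not pass with C-3BO, -0.091 (95% interval -0.40 to 0.22, adjusted p = 0.69) on chow and 0.21 (95% interval -0.096 to 0.52, adjusted p = 0.29) on HFD, or with CL, 0.29 (95% interval -0.019 to 0.60, adjusted p = 0.20) on chow and 0.23 (95% interval -0.091 to 0.54, adjusted p = 0.32) on HFD. HFD raised it in saline mice by 0.46 (SE 0.16, adjusted p = 0.041), and the value in CL mice was 0.39 (SE 0.15, adjusted p = 0.058). The call in saline mice was lost without chow saline mouse 3 or 5 or HFD saline mouse 1, 2, 3 or 5, with values of 0.31 to 0.48, and the diet cannot be told apart from the low-total set there.

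*Esrrb* (chr12:87702067-87862578), best known from stem cells and the inner ear, had the widest span of group means among the 10, 3.41-fold, and the fewest reads. Chow control mice had 3.22, 4.25, 6.83, 5.90 and 4.53 CPM and chow C-3BO mice had 1.36, 3.70, 2.15, 2.55 and 4.01 CPM. HFD control mice had 3.02, 2.04, 2.82, 2.59 and 2.26 CPM and HFD C-3BO mice had 5.17, 4.52, 3.55, 5.50 and 4.51 CPM. The order of the genotypes thus turned over between the diets. These levels rest on 9 to 85 counts per mouse in the cohort. C-3BO lowered *Esrrb* on chow to 0.560 of the control level, -0.84 (SE 0.25, adjusted p = 0.0082), and raised it 1.80-fold on HFD, 0.85 (SE 0.25, adjusted p = 0.0064). The chow difference did not pass when only the libraries compared were fitted, -0.83 (adjusted p = 0.053). The difference between these effects was 1.69 (SE 0.35, adjusted p = 0.0047), and it kept its call when any single mouse was left out, with values of 1.52 to 1.85. HFD lowered *Esrrb* in control mice, -0.95 (SE 0.24, adjusted p = 0.0022), and raised it in C-3BO mice, 0.74 (SE 0.25, adjusted p = 0.026). The latter call was lost without any 1 of 5 mice (chow C-3BO mice 1, 3 and 4 and HFD C-3BO mice 1 and 4), with values of 0.58 to 0.71, and without HFD C-3BO mice 4 and 5, 0.67 (adjusted p = 0.10).

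Skeletal muscle markers moved with *Esrrb* in the chow groups. All 14 were detected in every group, and none was at 0 throughout a group. Their sum was 841 to 10828 CPM in chow control mice and 439 to 4198 CPM in chow C-3BO mice, and in both groups the mouse with the lowest sum had the lowest *Esrrb*. In chow control mice the whole order of the sums was also that of *Esrrb*, and in chow C-3BO mice it was not. On HFD the sums were 9.39 to 235 CPM in control and 46.4 to 175 CPM in C-3BO mice. Their medians were 16.8 and 49.4 CPM, and all 5 C-3BO sums lay below that of HFD control mouse 5. The part of muscle in the *Esrrb* differences was not tested. In injected mice *Esrrb* group means were 1.45 to 2.02 CPM, and CL gave 0.47 (SE 0.27, adjusted p = 0.24) on chow and -0.10 (95% interval -0.70 to 0.49, adjusted p = 0.84) on HFD. The fall with HFD seen in control mice was not seen there. HFD against chow gave 0.60 (95% interval 0.026 to 1.17, adjusted p = 0.15) in saline mice. In CL mice it gave 0.024 (95% interval -0.53 to 0.58, adjusted p = 0.97), and diet cannot be told apart from the low-total set in either. The lowest count was 1, in HFD saline mouse 4.

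**Figure D4:**
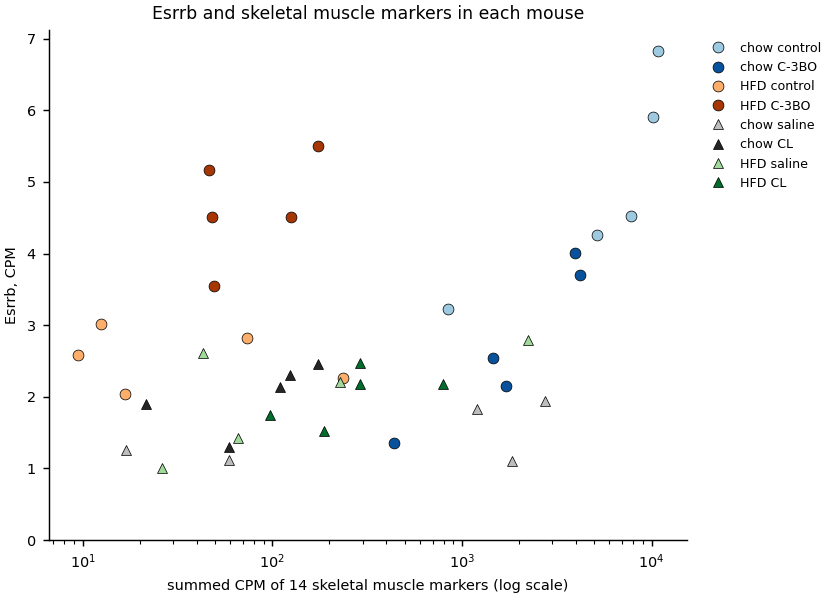
Each point is 1 of 40 mice, with the summed CPM of 14 skeletal muscle markers on a log x axis and *Esrrb* CPM on the y axis from 0. Circles are the C-3BO cohort and triangles the injected cohort. Chow control and chow C-3BO mice run from the lower middle to the upper right, while HFD C-3BO mice have 3.55 to 5.50 CPM at sums of 46.4 to 175 CPM.

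Whether C-3BO and CL differed on HFD was tested as the difference of their effects. No regulator passed by edgeR, with 1 at an unadjusted p under 0.05 and 0 by DESeq2, whereas 1.8% of all genes passed. *Ppargc1b* fell with both treatments, and the effect of C-3BO less that of CL was 0.31 (95% interval -0.12 to 0.75, adjusted p = 0.58). For *Esrrb* the difference was 0.95 (95% interval 0.18 to 1.73, adjusted p = 0.23), for *Ppara* -0.32 (95% interval -0.80 to 0.15, adjusted p = 0.61), and for *Esrra* 0.17 (95% interval -0.15 to 0.49, adjusted p = 0.72). The cohorts are separate, so only effects within a cohort were compared.

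Most of the fatty acid oxidation genes that PPARs act on rose with C-3BO on either diet. Of 25 genes of fatty acid oxidation 24 were tested, all but *Fgf21*. With C-3BO on chow 19 rose, 1 fell and 4 did not pass, with a median log2 fold change of 0.74, where all genes had a median of -0.032. On HFD 15 rose, 1 fell and 8 did not pass, with a median log2 fold change of 0.63, against -0.016. With CL on chow 12 rose, 3 fell and 9 did not pass, with a median log2 fold change of 0.30, and on HFD 13 rose, 1 fell and 10 did not pass, with a median log2 fold change of 0.55, while all genes had medians of -0.0052 and -0.010. The shares that rose and fell were 79.2% and 4.17% against 15.8% and 15.9% of all genes for C-3BO on chow and 62.5% and 4.17% against 19.3% and 15.5% of all genes on HFD. For CL they were 50% and 12.5% against 9.16% and 6.13% of all genes on chow and 54.2% and 4.17% against 12.7% and 10.8% of all genes on HFD. With library totals alone the numbers that rose and fell were 16 and 2 (median 0.54) for C-3BO on chow, 15 and 1 (median 0.48) on HFD, 10 and 5 (median 0.16) for CL on chow and 11 and 1 (median 0.40) on HFD. Without HFD C-3BO mice 4 and 5, 14 rose and 1 fell on HFD. Without chow CL mouse 5, 13 rose and 4 fell with CL on chow, and without HFD saline mouse 4, 11 rose and 1 fell with CL on HFD. Liver, where many of these genes are abundant, gave 18 markers whose sum was 75.7 to 120.1 CPM in HFD control and 136 to 702 CPM in HFD C-3BO mice, 156 to 328 and 179 to 515 CPM in the same genotypes on chow, 317 to 657 CPM in chow saline, 226 to 489 in chow CL, 181 to 499 in HFD saline and 383 to 681 CPM in HFD CL mice. None of the 18 was at 0 in the HFD groups, 3 each were at 0 in chow control and chow C-3BO mice, 7 in chow saline and 5 in chow CL mice, and the part of liver in these counts was not tested.

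*Ehhadh*, a bifunctional enzyme of peroxisomal β-oxidation, rose with C-3BO by 3.54 on chow and 2.45 on HFD, and CL values were -0.31 (SE 0.49, adjusted p = 0.73) and 0.81 (SE 0.52, adjusted p = 0.27). *Cyp4a10*, a fatty acid ω-hydroxylase, had the largest fitted rise with C-3BO, 3.67 (SE 1.23, adjusted p = 0.021) on chow and 6.25 (SE 1.03, adjusted p = 1.1e-05) on HFD, but these values depend on the prior count. It had 0 or 1 count in each chow and HFD control mouse and 6, 5, 11, 2 and 2 counts in chow C-3BO mice. HFD C-3BO mice had 3, 0, 4, 39 and 49 counts, most of them in mice 4 and 5, whose liver markers were also the highest of the group, and without those mice the value on HFD was 2.72 (adjusted p = 0.065). Mice 4 and 5 belong to the low-total set, as do all HFD saline and HFD CL mice, which had 3 to 36 and 6 to 36 *Cyp4a10* counts. Chow saline and chow CL mice had 0 to 3. The part of that set in the *Cyp4a10* rise was not tested. Counts of this gene may also be shared with near-identical family members. With CL the largest rise was that of *Acaa1b*, a peroxisomal thiolase with a close paralog, at 1.46 (SE 0.23, adjusted p = 3.3e-05) on chow and 2.54 (SE 0.25, adjusted p = 3.3e-09) on HFD. *Acaa1b* rose with C-3BO as well, by 2.87 (SE 0.25, adjusted p = 8.2e-11) on chow and 2.98 (SE 0.25, adjusted p = 9.9e-12) on HFD. *Angptl4*, an inhibitor of lipoprotein lipase, was the gene that fell most with C-3BO, -1.09 on chow and -1.26 on HFD, and with CL on HFD, -1.83. *Pdk4*, which shuts off pyruvate oxidation, rose with C-3BO on chow by 1.28, and *Cpt1b*, the muscle-type entry enzyme of mitochondrial oxidation, by 0.29.

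Of 20 PPAR targets of lipid uptake and storage, with C-3BO on chow 12 rose, 4 fell and 4 did not pass, with a median log2 fold change of 0.56, and on HFD 10 rose, 4 fell and 6 did not pass, with a median log2 fold change of 0.49. With CL on chow 6 rose, 4 fell and 10 did not pass, with a median log2 fold change of 0.18, and on HFD 9 rose, 2 fell and 9 did not pass, with a median log2 fold change of 0.34. The shares that rose and fell were 60% and 20% against 15.8% and 15.9% of all genes for C-3BO on chow, 50% and 20% against 19.3% and 15.5% of all genes on HFD, 30% and 20% against 9.16% and 6.13% of all genes for CL on chow and 45% and 10% against 12.7% and 10.8% of all genes on HFD. Under scaling by library totals alone, the numbers that rose and fell were 10 and 5 (median 0.36) for C-3BO on chow, 6 and 4 (median 0.33) on HFD, 5 and 4 (median 0.028) for CL on chow and 9 and 3 (median 0.19) on HFD. Without HFD C-3BO mice 4 and 5, 9 rose and 3 fell with C-3BO on HFD. White adipocyte markers such as *Lep* and *Retn* summed to 265 to 1179 CPM in HFD control and 51.4 to 293 CPM in HFD C-3BO mice, and to 348 to 1049 and 132 to 448 CPM in HFD saline and HFD CL mice, and their part was not tested. *Gyk*, the glycerol kinase, had the largest rise in all 4 comparisons, 1.46 and 1.81 with C-3BO on chow and HFD and 1.04 and 1.70 with CL. *Plin2*, a coat protein of lipid droplets, rose by 1.11, 1.09, 0.67 and 0.94 in the same order. Another droplet protein, *Plin4*, fell with C-3BO on HFD, -1.54 (SE 0.14, adjusted p = 9.6e-11), and with CL on chow, -0.79, and HFD, -1.14. *Fabp3*, a fatty acid binding protein of muscle and brown fat, fell most with C-3BO on chow, -0.84, and rose with HFD in control mice by 1.27 (SE 0.19, adjusted p = 2e-06). *Adipoq*, the hormone of mature adipocytes, fell with C-3BO on chow, -0.36, and with CL on chow, -0.47, and *Fabp4* rose in the same comparisons by 0.48 and 0.47. *Cd36*, the fatty acid transporter, passed in none of the 4 and rose with HFD in all 4 kinds of mice, by 0.43 to 0.58.

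Targets of PGC1 and ERRs in the TCA cycle and respiration rose with CL on both diets and with C-3BO on HFD, while C-3BO on chow depended on the scaling. Of 23 genes, with C-3BO on HFD 18 rose, 0 fell and 5 did not pass, with a median log2 fold change of 0.47, and when HFD C-3BO mice 4 and 5 were left out 15 rose and 0 fell. With CL on chow 17 rose, 2 fell and 4 did not pass, with a median log2 fold change of 0.39, and on HFD 17 rose, 0 fell and 6 did not pass, with a median log2 fold change of 0.47. Without chow CL mouse 5, 17 rose and 1 fell on chow. With C-3BO on chow 7 rose, 2 fell and 14 did not pass, with a median log2 fold change of 0.077, where the shares were 30.4% and 8.7% against 15.8% and 15.9% of all genes. They were 78.3% and 0% against 19.3% and 15.5% of all genes for C-3BO on HFD, 73.9% and 8.7% against 9.16% and 6.13% of all genes for CL on chow and 73.9% and 0% against 12.7% and 10.8% of all genes for CL on HFD. Scaled by totals alone, those that rose and fell were 4 and 8 (median -0.12) for C-3BO on chow, 15 and 0 (median 0.31) on HFD, 14 and 2 (median 0.25) for CL on chow and 14 and 0 (median 0.32) on HFD. *Cycs*, cytochrome c, had the largest rise with C-3BO on HFD, 1.25 (SE 0.20, adjusted p = 5.7e-06), and *Uqcrfs1*, the Rieske subunit of complex III, the largest with CL on HFD, 0.85 (SE 0.13, adjusted p = 9.5e-06). *Cox7a1*, a complex IV subunit of muscle and brown fat, rose with CL on chow by 0.86 (SE 0.15, adjusted p = 8.5e-05) and with C-3BO on HFD by 0.71. *Dlst*, a subunit of the oxoglutarate dehydrogenase complex, had the largest rise with C-3BO on chow, 0.46. *Atp5b*, *Idh3a* and *Sdhb*, of ATP synthase, the TCA cycle and complex II, rose with C-3BO on HFD by 0.48, 0.58 and 0.54 and with CL on HFD by 0.53, 0.47 and 0.53. The genes that fell were *Ckmt2*, the mitochondrial creatine kinase of striated muscle, with -2.0 (SE 0.70, adjusted p = 0.026) for C-3BO on chow and -4.25 (SE 1.15, adjusted p = 0.0095) for CL on chow, and *Cox6a2*, a complex IV subunit of striated muscle, with -1.82 and -3.74. In chow CL mice these genes had 0 to 8 and 0 to 4 counts per mouse. The sums of the muscle markers were lower in the same comparisons, with medians of 7838 CPM in chow control, 1711 in chow C-3BO, 1201 in chow saline and 109.6 CPM in chow CL mice, and their part was not tested. On HFD the endothelial markers given above were higher in every CL mouse than in every saline mouse and lower in every C-3BO mouse than in every control mouse, and their part in these counts was not tested either.

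**Figure D5:**
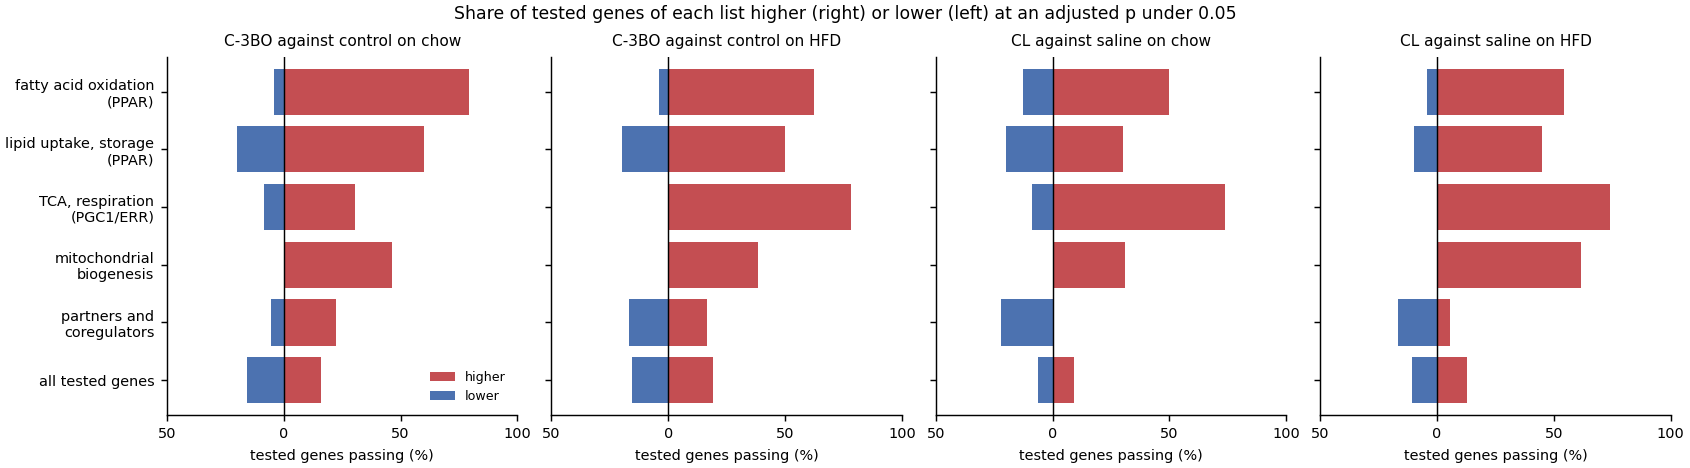
Bars show the share (%) of tested genes of each list, and of all 13277 tested genes in the lowest row, that were higher (right of 0, red) or lower (left of 0, blue) at an adjusted p under 0.05. Of the fatty acid oxidation genes 79.2% were higher with C-3BO on chow, and of the respiration genes 78.3% were higher with C-3BO on HFD.

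Of 13 regulators of mitochondrial biogenesis none fell in the 4 treatment comparisons with the TMM factors. With C-3BO 6 rose on chow and 5 on HFD, with medians of 0.26 and 0.32. With CL 4 rose on chow and 8 on HFD, with medians of 0.12 and 0.43. The shares that rose and fell were 46.2% and 0% against 15.8% and 15.9% of all genes for C-3BO on chow, 38.5% and 0% against 19.3% and 15.5% of all genes on HFD, 30.8% and 0% against 9.16% and 6.13% of all genes for CL on chow and 61.5% and 0% against 12.7% and 10.8% of all genes on HFD. The numbers that rose and fell with library totals alone were 4 and 2 (median 0.065) for C-3BO on chow, 4 and 0 (median 0.15) on HFD, 3 and 0 (median -0.023) for CL on chow and 4 and 1 (median 0.28) on HFD. *Gabpa*, the α subunit of NRF2, rose most on chow, by 0.84 (SE 0.11, adjusted p = 7.6e-07) with C-3BO and 0.63 with CL. *Tfb2m*, a transcription factor of mitochondrial DNA, rose most on HFD, by 0.80 (SE 0.11, adjusted p = 6.5e-07) with C-3BO and 0.80 (SE 0.12, adjusted p = 5.9e-06) with CL. *Tfam*, which packages mitochondrial DNA, rose by 0.48, 0.57, 0.52 and 0.62 in the 4 comparisons. *Nrf1* and *Pprc1*, the remaining PGC1 family gene, did not pass in any of them, at -0.14 to 0.26 and -0.38 to 0.12.

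Of 18 partners and coregulators of the receptors, with C-3BO 4 rose and 1 fell on chow and 3 rose and 3 fell on HFD, where without mice 4 and 5 of the C-3BO group 2 rose and 1 fell. With CL 0 rose and 4 fell on chow, and 1 rose and 3 fell on HFD. The medians were 0.15, -0.036, -0.12 and -0.048. The shares that rose and fell were 22.2% and 5.56% against 15.8% and 15.9% of all genes for C-3BO on chow, 16.7% and 16.7% against 19.3% and 15.5% of all genes on HFD, 0% and 22.2% against 9.16% and 6.13% of all genes for CL on chow and 5.56% and 16.7% against 12.7% and 10.8% of all genes on HFD. When library totals alone were used, those that rose and fell were 3 and 5 (median -0.040) for C-3BO on chow, 1 and 7 (median -0.20) on HFD, 0 and 7 (median -0.27) for CL on chow and 1 and 4 (median -0.19) on HFD. *Prdm16*, which keeps brown adipocyte identity, rose with C-3BO on chow by 0.72 (SE 0.17, adjusted p = 0.0014), and *Rxrb*, the remaining retinoid X receptor, by 0.36. *Nrip1*, a corepressor of these receptors, rose with C-3BO on HFD by 0.80 (SE 0.30, adjusted p = 0.037) and fell with HFD in control mice, -1.05 (SE 0.30, adjusted p = 0.0056). The coactivator *Ncoa1* fell most with C-3BO on chow, -0.26, and with CL on HFD, -0.43. Its relative *Ncoa3* fell most with C-3BO on HFD, -0.51, and with CL on chow, -0.42. The corepressor *Ncor1* fell with C-3BO on HFD, -0.34, where leaving out mice 4 and 5 gave -0.17 (adjusted p = 0.24), and with CL on HFD, -0.33, and *Tbl1xr1*, a partner of it, rose with CL on HFD by 0.58. *Med1* and *Lpin1* did not pass in these 4 comparisons.

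HFD raised lipid uptake and storage genes in control mice. In control mice 13 of 20 lipid uptake and storage genes rose and 1 fell, with a median of 0.59, and 0 of 23 respiration genes rose and 10 fell, with a median of -0.18. Of the 24 fatty acid oxidation genes 6 rose and 0 fell, among them *Cpt1b* with 0.93 (SE 0.11, adjusted p = 5.2e-08). The shares that rose and fell were 65% and 5% of the uptake and storage genes, against 15.4% and 17.5% of all genes. They were 0% and 43.5% of the respiration genes and 25% and 0% of the oxidation genes. In C-3BO mice 5 uptake and storage genes rose and 1 fell, and 4 respiration genes rose and 3 fell. In injected mice, where diet cannot be told apart from the low-total set, 0 respiration genes rose and 2 fell in saline mice and 2 rose and 2 fell in CL mice. The shares in saline mice were 0% and 8.7%, against 7.45% and 8.04% of all genes. In CL mice they were 8.7% and 8.7%, against 10.9% and 12.7% of all genes. In control mice the numbers that rose and fell with library totals alone were 13 and 0 (median 0.74) of the uptake and storage genes, 5 and 8 (median -0.033) of the respiration genes and 11 and 0 (median 0.42) of the oxidation genes. In C-3BO mice they were 9 and 1 (median 0.35) of the uptake and storage genes and 14 and 2 (median 0.32) of the respiration genes, and the respiration genes gave 6 and 0 (median 0.092) in saline and 9 and 0 (median 0.20) in CL mice. Of all 13277 tested genes, 3506 rose and 1415 fell with library totals alone in control and 3859 and 861 in C-3BO mice. Saline mice gave 2423 and 435, and CL mice gave 2872 and 730. Muscle marker sums were lower on HFD than on chow in control mice, as given above, and their part was not tested.

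The genes whose 8 group means of log2 CPM followed a regulator most closely were sought among 4616 genes with a span of at least 1 on the log2 scale. Pearson's r over the 8 means is given as a description, and all points share the libraries and their depth. *Ppara* was followed most closely by *Olfml2a* (0.810), *Rasd1* (0.796) and *Sidt1* (0.778), and *Rxra* by *Sh3pxd2a* (0.963), *Higd1b* (0.960) and *Tcf23* (0.957). *Ppard* was followed by *Sh2d2a* (0.943), *Lrrc4c* (0.901) and *Per2* (0.900), *Ppargc1b* by *Zfp296* (0.958), *Fam129c* (0.946) and *Tmub1* (0.933), and *Esrra* by *Wnt5b* (0.982), *Adh4* (0.978) and *Cox8b* (0.966). For *Esrrb* they were *Lgr6* (0.887), *Wipf3* (0.858) and *Nme6* (0.851).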

How the data were processed

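RNA of BAT from 40 mice was sequenced as poly(A) libraries. The authors aligned reads to mm9 with STAR, assigned exon reads to RefSeq genes with HOMER and iRNA-seq, and deposited raw counts without normalization, as the label and the whole numbers show. Groups came from the labels, which give each of the 5 mice per group its own number. Totals of 849126 to 15260516 counts limit precision. Genes were kept by filterByExpr of edgeR 4.0.16 (minimum count 10, R 4.3.3), which left 13277. Scaling used TMM factors. edgeR's quasi-likelihood test was fitted once to all 40 libraries with 1 mean per group, and p-values were adjusted by Benjamini-Hochberg over all tested genes of a comparison. A gene passed at an adjusted p under 0.05. SE and 95% intervals derive from the F statistic. Adjusted p-values without another name are from this test. Exact two-sided permutation tests used mean log2 CPM (prior count 2), and where groups did not overlap their p was 0.0079, the smallest they can give. CPM per kb used counted exon bases.

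The regulators and gene lists were chosen with earlier results of these data known. Named list genes are those marked beforehand in each list and, per list and treatment comparison, the largest change in each direction that passed, and some of these genes are not reported here. Alternatives were library totals, RLE factors, DESeq2 1.42.0, no filter, a minimum of 10 counts in every library, the replicate number as a block, fits of only the libraries compared, and leaving out replicates or HFD C-3BO mice 4 and 5. Leaving out single libraries, and motif counts in windows of mm9 before the deposited starts, were added after the data were seen. The test was checked on simulated counts with known changes. Promoters of GRCm38.p6 are from RefSeq.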

Additional observations from a re-analysis of the deposited data

Results flagged for a closer look

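Of 80 sets of 5 mice, 1 for each regulator and group, 8 held a mouse far from the others by Dixon's criterion, which chance meets in about 1 of 20. Chow CL mouse 5, whose *Ucp1* was in the range of saline mice, had *Ppara* at 636 CPM, against 1089 to 1262 CPM in the other mice of its group, and *Rxra* at 117 CPM, against 138 to 145 CPM in the other mice of its group. HFD control mouse 4 had *Ppara* at 1181 CPM, against 1511 to 1603 CPM in the other mice of its group, and *Ppard* at 56.9 CPM, against 48.4 to 49.7 CPM in the other mice of its group. Chow C-3BO mouse 5 had *Rxrg* at 28.1 CPM, against 39.0 to 43.4 CPM in the other mice of its group, and HFD CL mouse 3 had *Rxrg* at 18.9 CPM, against 26.7 to 29.5 CPM in the other mice of its group. Chow saline mouse 5 had *Ppargc1b* at 309.9 CPM, against 184 to 213 CPM in the other mice of its group, and HFD saline mouse 2 had *Esrra* at 291 CPM, against 246 to 256 CPM in the other mice of its group.

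For 2 regulators the effect of C-3BO differed between HFD and chow by the test of that difference. It was -0.93 (SE 0.24, adjusted p = 0.024) for *Ppara* and 1.69 (SE 0.35, adjusted p = 0.0047) for *Esrrb* on the log2 scale. The *Ppara* difference did not pass without chow control mouse 3 or HFD C-3BO mouse 4, at -0.81 (adjusted p = 0.059) and -0.84 (adjusted p = 0.055). For *Esrrb* each HFD C-3BO mouse lay above each HFD control mouse, and the chow genotypes overlapped. On HFD 20.8% of all tested genes separated the genotypes fully, in either direction.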

How the results depend on the processing

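With C-3BO on chow, 2 of the 10 regulators passed, against 4 with library totals alone and 3 with DESeq2. There was 1 among genes with at least 10 counts in every library and 1 when the fit held only the libraries compared. With C-3BO on HFD 5 passed, and 2 without HFD C-3BO mice 4 and 5. Library totals alone gave 1 higher and 3 lower. *Rxra* did not pass with no filter, 0.22 (adjusted p = 0.10), and *Esrra* did not with only the libraries compared, 0.35 (adjusted p = 0.067). With CL on chow 2 passed, and 1 under totals alone, RLE scaling, no filter or a fit of only the libraries compared. With CL on HFD 1 passed, and 2 with library totals alone. HFD against chow gave 3 in control mice, and 4 with library totals alone. In C-3BO mice it gave 5, and 6 with library totals alone, 3 with no filter, with at least 10 counts or with only the libraries compared, and 1 without HFD C-3BO mice 4 and 5. In saline mice it gave 2, and 4 with library totals alone, 1 with no filter and 0 with only the libraries compared. In CL mice it gave 1, and 3 with library totals alone and 2 with RLE factors, DESeq2, at least 10 counts or only the libraries compared. The difference of the C-3BO effects between the diets gave 2, and 3 with DESeq2. It gave 1 with at least 10 counts, with only the libraries compared and without HFD C-3BO mice 4 and 5. When replicates were left out, from one group or from all groups at once, these counts ran over 1 to 3 and 2 to 5 for C-3BO on chow and HFD, 1 to 2 and 1 to 1 for CL, 3 to 3, 1 to 5, 0 to 2 and 1 to 2 for the diet in control, C-3BO, saline and CL mice, and 0 to 3, 0 to 1 and 0 to 0 for the differences of effects.

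Signs turned only for values that did not pass. With library totals alone C-3BO on chow gave -0.16 for *Rxrg*, -0.16 for *Ppargc1a*, -0.040 for *Ppargc1b* and -0.086 for *Esrra*, and CL on chow gave -0.12 for *Pparg* and -0.0079 for *Ppargc1a*. With no filter *Pparg* was -0.0032 with CL on chow. Leaving out replicates gave, for C-3BO on chow, -0.031 to 0.22 for *Rxrg*, -0.039 to 0.15 for *Ppargc1a* and -0.20 to 0.031 for *Esrrg*, and for C-3BO on HFD, -0.061 to 0.052 for *Ppard* and -0.066 to 0.32 for *Ppargc1a*. With CL on chow it gave -0.11 to 0.18 for *Pparg*, -0.13 to 0.13 for *Rxra* and -0.36 to 0.051 for *Ppargc1b*, and on HFD -0.12 to 0.13 for *Ppargc1a* and -0.26 to 0.068 for *Esrrb*. Each fold change that passed kept its direction. *Rxra* with C-3BO on chow, and *Ppargc1b* with CL on HFD, passed under each alternative. *Esrrb* with C-3BO on chow did not pass with only the libraries compared, -0.83 (adjusted p = 0.053). *Esrrb* was not fitted where at least 10 counts in every library were required, as HFD saline mouse 4 had 1 count. Where fewer libraries entered a fit, fewer samples informed the spread, and the causes of the other changes were not tested.

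For same-numbered mice, correlations between their deviations from group means ran from -0.376 to 0.444. Differently numbered mice were not compared in this way, so a pairing by number was not shown. With the replicate block 2 regulators in place of 1 passed for the diet in CL mice, and no other count of regulators moved. Calls over all genes went from 4200 to 4121 for C-3BO on chow and from 3122 to 2995 for CL on HFD. Depth limited *Esrrb* most, with 1 to 85 counts per mouse.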
